A study of Mus musculus with 6 samples.

Results

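The mitochondrial ribosomal protein genes were followed here in KLS cells. These are marrow cells positive for Kit and Sca-1 and negative for lineage markers, among them the blood-forming stem cells and early progenitors. Members were the genes that the array platform's annotation names Mrpl or Mrps with a number and an optional letter. There were 74 such genes among the 20209 genes measured, and all 74 had at least 1 probe set above the median level of the array. The arrays read total RNA of 3 Wild-type samples and 3 Dnmt3a+/- samples, heterozygous for Dnmt3a, which encodes an enzyme that methylates DNA. The title places the study in the question of how a reduced dose of this gene favours myeloid malignancy. The sources used here do not give how the allele was made, the age of the mice or whether the samples of a genotype came from separate animals. The p-values therefore reflect only how these samples varied, and part of that may be technical.

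Mitochondria keep a small genome that codes for a few subunits of the respiratory chain, and they translate its messages on ribosomes of their own. The RNA of these ribosomes is made inside the organelle, while every ribosomal protein is encoded in the nucleus, made in the cytoplasm and imported. Genes named Mrpl mostly encode proteins of the large subunit, where peptide bonds form, and genes named Mrps mostly those of the small subunit, where the message is decoded. Some of the proteins have counterparts in the bacterial ribosome, and others occur only in mitochondria. Long-lived stem cells rely less on respiration than their cycling progeny, and mitochondrial translation sets how much respiratory chain a cell can build.

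The names do not follow the subunits exactly. Mrps30 and Mrps18a encode proteins of the large subunit despite their names, and the protein of Mrps36 serves the ketoglutarate dehydrogenase complex rather than the ribosome. With these counted where they belong, 47 members were large-subunit genes, 26 were small-subunit genes and 1 was Mrps36. Mrpl53 shares all its probe sets on this platform with another gene and was therefore not analysed here. The members had 713 probe sets, of which 650 passed the filter on dim probe sets, with a median of 8 per gene. Mrpl23 and Mrpl27 rested on 1 probe set each.

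Dnmt3a itself read 8.51, 8.70 and 8.50 on the Wild-type arrays and 8.38, 8.20 and 8.20 on the Dnmt3a+/- arrays, on the log2 scale used throughout. The genotypes did not overlap, with a log2 difference of -0.31 (SE 0.12, limma adjusted p = 0.631). Of the genes for the sorted antigens, Kit was at 10.74 ± 0.06 against 10.63 ± 0.03 (SD, n = 3), Wild-type first. Ly6a, which encodes Sca-1, was at 8.48 ± 0.18 against 8.46 ± 0.13. The genotypes did not overlap for Kit, which was lower in Dnmt3a+/- cells, as were 9.03% of all genes in this way. Dnmt3a+/- replicate 2 stood apart from the other arrays, with a mean correlation of 0.903 across genes against 0.937 to 0.948 for the others. The results below state where they were also computed without this array.

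No member differed between the genotypes after adjustment. In the limma fit over all 20209 genes, 0 of the 74 members passed an adjusted p of 0.05 (smallest adjusted p = 0.631), and 0 of all genes did (0%). At an unadjusted p under 0.05 there was 1 member that was lower in Dnmt3a+/- cells, Mrps31, and 0 that were higher, where 4.59% and 2.94% of all genes had such a p. The genotypes did not overlap for 4 members that were lower in Dnmt3a+/- cells (Mrps31, Mrpl38, Mrpl30 and Mrpl54) and for 1 that was higher (Mrpl23), where 9.03% and 6.72% of all genes were apart in this way.

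The differences were small. They ran from -0.54 to 0.31, with a median of -0.06 beside -0.02 over all genes. Of the 74 members, 49 had a negative difference (66.2%, beside 54.4% of all genes). These shares are not matched for brightness. In the brightest 20% of all genes the median was -0.06 for 35 members and -0.13 for all genes. In the next 20% it was -0.07 for 30 members and -0.10 for all genes. The 7 members in the middle 20% (-0.11 beside -0.0014) and the 2 in the dimmest 20% (-0.02 beside 0.07) were lower than all genes. None of the members was more than 1.5-fold apart, where 337 of all genes were (1.67%). For 34 members the difference was smaller than 0.1 in either direction. The 95% confidence interval lay within 1.5-fold in both directions for 44 of the 74 members, so for the other 30 a change of that size could not be resolved with 3 arrays per genotype.

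**Figure D1:**
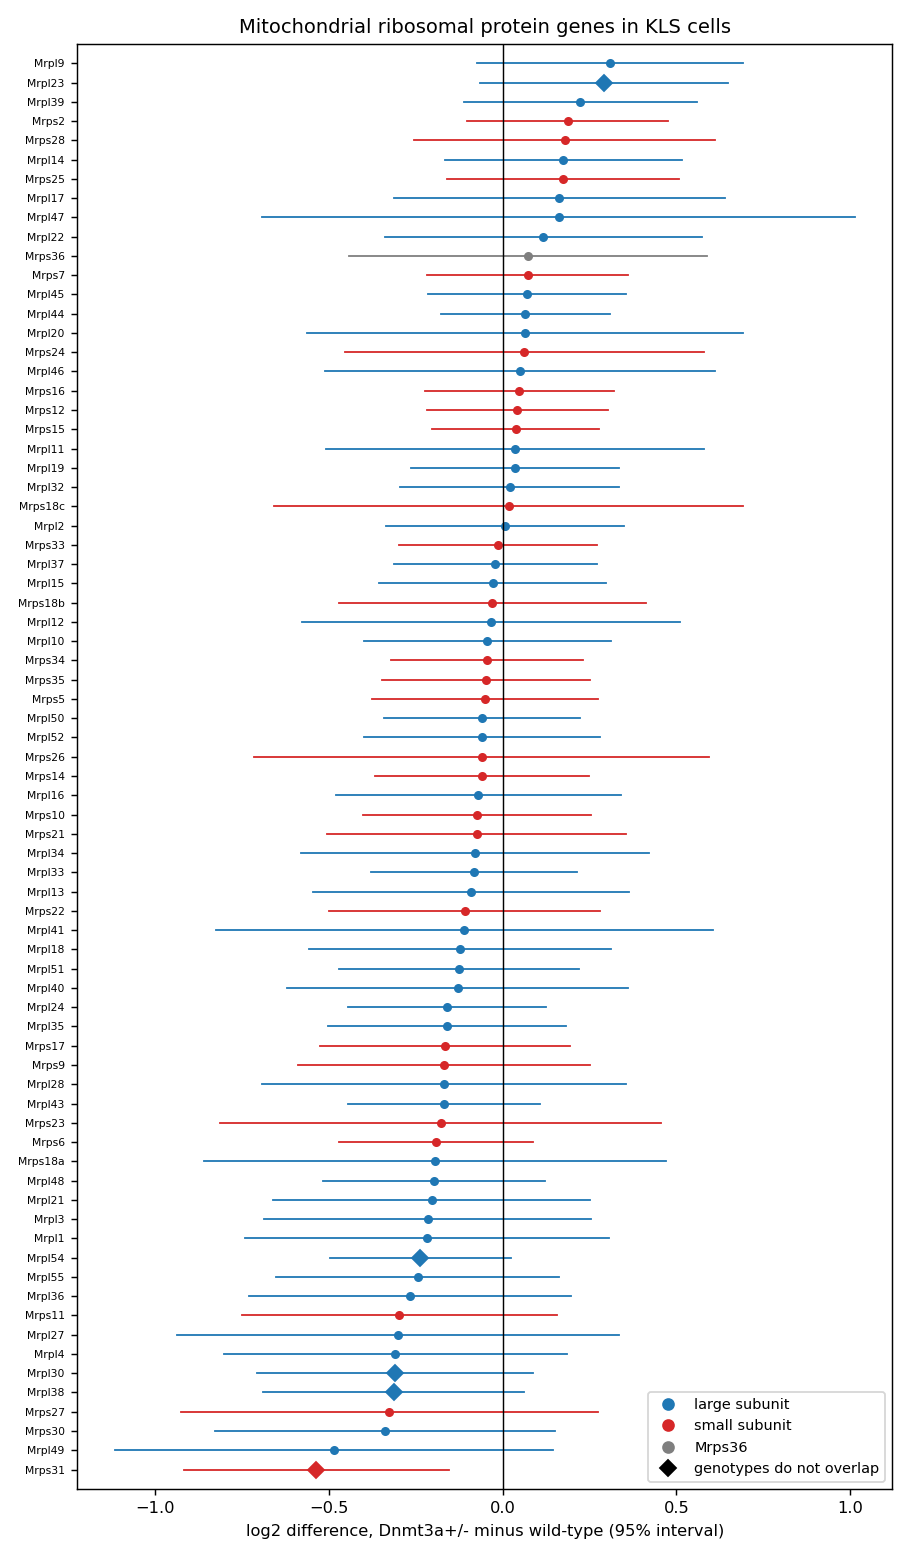
Log2 difference (Dnmt3a+/- minus Wild-type, horizontal axis) of the 74 mitochondrial ribosomal protein genes, with points for the estimate, lines for the 95% confidence interval, colour for the subunit and diamonds for the 5 genes whose genotypes do not overlap. The estimates run from -0.54 for Mrps31 to 0.31 for Mrpl9, and the interval of Mrps31 is the 1 that does not include 0.

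Mrps31, a small-subunit protein found only in mitochondria, had the lowest difference. It read 8.19, 8.59 and 8.27 on the Wild-type arrays and 8.06, 7.57 and 7.81 on the Dnmt3a+/- arrays. Every Dnmt3a+/- array lay below every Wild-type array. The log2 difference was -0.54 (SE 0.17), a fold of 0.689, and its 95% confidence interval ran from -0.92 to -0.15. It had a limma adjusted p of 0.631 and an exact two-sided permutation p of 0.1, the smallest that 3 against 3 arrays allow. Of its 10 annotated probe sets 7 passed the filter. All 7 had a negative difference, between -0.84 and -0.13, and in 1 of them the genotypes did not overlap. Without Dnmt3a+/- replicate 2 the gene's difference was -0.42 (SE 0.16), and the genotypes again did not overlap. With all arrays and no filter on dim probe sets it was -0.45, with an unadjusted limma p of 0.078 against 0.012 with the filter. In bulk RNA, fewer cells of a type and less RNA per cell cannot be told apart.

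Mrpl54, which sits near the stalk where translation factors dock on the large subunit, also had non-overlapping genotypes. It read 8.09, 8.05 and 8.18 on Wild-type and 7.88, 7.98 and 7.75 on Dnmt3a+/- arrays, a difference of -0.24 (SE 0.11, limma adjusted p = 0.631). Without Dnmt3a+/- replicate 2 it was -0.29 (SE 0.11). Its 5 probe sets were unlike one another: the differences ran from -0.97 for probe set 4867974 to 0.46 for probe set 4757030. The size thus depended on how they were combined, and with their median in place of their mean the difference was -0.91.

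Mrpl38 and Mrpl30 were lower by a narrow margin on 2 of the Dnmt3a+/- arrays and by a wide one on the remaining array. Mrpl38, a protein of the central protuberance that faces the small subunit, read 7.56, 7.57 and 7.46 on Wild-type and 7.43, 6.86 and 7.36 on Dnmt3a+/- arrays. Its difference was -0.31 (SE 0.16), and -0.14 without Dnmt3a+/- replicate 2. Mrpl30, which has a bacterial counterpart, read 9.57, 9.74 and 9.71 on Wild-type and 9.55, 8.98 and 9.56 on Dnmt3a+/- arrays. Its difference was -0.31 (SE 0.17), and -0.12 without that array. In both genes replicate 2 was the lowest of the 6 arrays.

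The remaining genes with large negative differences overlapped between genotypes. Mrpl49, a large-subunit protein of mitochondria, read 7.62, 8.07 and 7.60 on Wild-type and 7.71, 6.65 and 7.47 on Dnmt3a+/- arrays, a difference of -0.49 (SE 0.27). Mrps30 read 7.68, 7.94 and 8.08 against 7.71, 7.10 and 7.87, a difference of -0.34 (SE 0.21). Mrps27, a small-subunit protein with RNA-binding repeats, read 7.11, 6.95 and 6.74 against 6.96, 5.97 and 6.89, a difference of -0.33 (SE 0.26). Replicate 2 was the lowest of the 6 arrays for all 3 genes, and without it their differences were -0.17, -0.11 and -0.01.

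On the positive side, Mrpl9, the counterpart of a bacterial large-subunit protein, had the largest difference. It read 7.38, 7.98 and 7.66 on Wild-type and 8.13, 7.89 and 7.92 on Dnmt3a+/- arrays. The groups overlapped at 1 Wild-type array, and the difference was 0.31 (SE 0.17, limma adjusted p = 0.643). Of its 9 probe sets 8 had a positive difference. Mrpl23, at the mouth of the tunnel through which the new protein leaves, read 6.50, 6.63 and 6.14 on Wild-type and 6.63, 6.63 and 6.88 on Dnmt3a+/- arrays, a difference of 0.29 (SE 0.15) on its 1 probe set. The gap between the highest Wild-type and the lowest Dnmt3a+/- array of Mrpl23 was less than 0.01. Mrpl39 differed by 0.22 (SE 0.15), Mrps2 by 0.19 (SE 0.13) and Mrps28 by 0.18 (SE 0.19), each with overlapping genotypes. The 5 differences were between 0.11 and 0.36 without Dnmt3a+/- replicate 2. Without Wild-type replicate 1, Mrpl9 was at 0.16 and Mrps28 at 0.013, without Wild-type replicate 3 Mrpl23 was at 0.15 and Mrps2 at 0.11, and with array weights Mrpl39 was at 0.040.

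**Figure D2:**
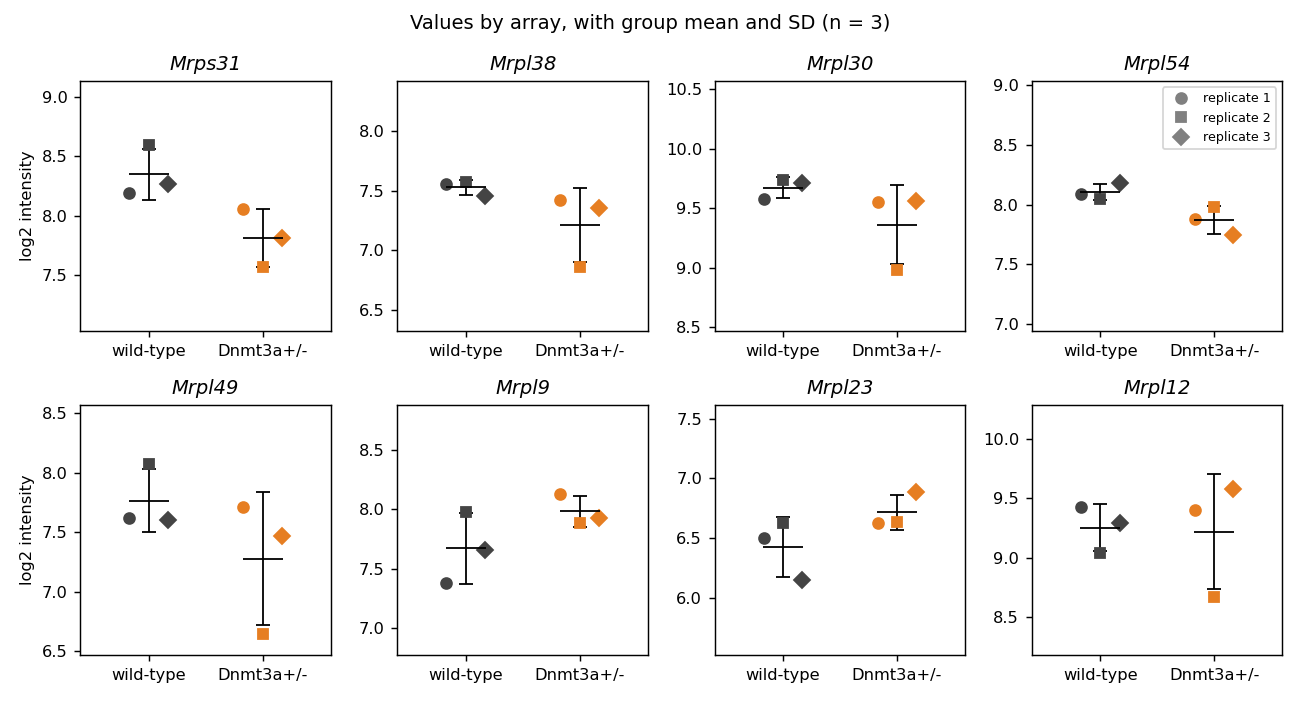
Log2 intensity (vertical axis) of 8 members on each array, with symbols for the replicate number, a horizontal line for the mean of the 3 arrays and bars for the SD. Mrps31 is lower on all 3 Dnmt3a+/- arrays, whereas in Mrpl38, Mrpl30, Mrpl49 and Mrpl12 Dnmt3a+/- replicate 2 lies well below the other arrays.

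Promoters of mitochondrial genes are known for binding sites of NRF1, of ETS factors such as GABP, and of YY1. Shown here are those of Mrps31 and of the 4 members with a difference given above whose window holds such a motif. The sequences are the 250 bases before the gene's start, 5′ to 3′ on the gene's strand, from RefSeq (GRCm38.p6), and capitals mark matches to the motifs searched.
Mrps31, chr8:22411090-22411339, plus strand: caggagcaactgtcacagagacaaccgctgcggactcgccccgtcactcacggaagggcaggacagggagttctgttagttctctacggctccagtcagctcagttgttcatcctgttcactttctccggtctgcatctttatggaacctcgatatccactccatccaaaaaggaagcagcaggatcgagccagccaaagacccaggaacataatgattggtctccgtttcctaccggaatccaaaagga
Mrps27, chr13:99344536-99344785, plus strand: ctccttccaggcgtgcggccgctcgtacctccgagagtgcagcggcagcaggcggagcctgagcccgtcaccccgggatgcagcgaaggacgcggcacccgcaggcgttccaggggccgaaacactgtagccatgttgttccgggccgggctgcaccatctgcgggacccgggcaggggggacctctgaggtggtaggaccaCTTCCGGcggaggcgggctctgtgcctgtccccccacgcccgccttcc
Mrpl30, chr1:37890227-37890476, plus strand: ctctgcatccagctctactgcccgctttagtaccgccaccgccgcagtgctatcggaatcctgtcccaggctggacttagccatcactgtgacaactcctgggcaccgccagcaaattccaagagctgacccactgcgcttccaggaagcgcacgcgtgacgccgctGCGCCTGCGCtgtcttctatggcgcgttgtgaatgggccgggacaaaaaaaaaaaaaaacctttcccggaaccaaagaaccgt
Mrpl9, chr3:94443086-94443335, plus strand: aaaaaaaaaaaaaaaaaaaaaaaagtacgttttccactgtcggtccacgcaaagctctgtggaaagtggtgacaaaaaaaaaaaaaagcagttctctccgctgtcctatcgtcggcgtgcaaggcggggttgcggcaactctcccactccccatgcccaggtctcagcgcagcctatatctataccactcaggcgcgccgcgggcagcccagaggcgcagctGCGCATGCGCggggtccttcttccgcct
Mrpl39, chr16:84735245-84735494, minus strand: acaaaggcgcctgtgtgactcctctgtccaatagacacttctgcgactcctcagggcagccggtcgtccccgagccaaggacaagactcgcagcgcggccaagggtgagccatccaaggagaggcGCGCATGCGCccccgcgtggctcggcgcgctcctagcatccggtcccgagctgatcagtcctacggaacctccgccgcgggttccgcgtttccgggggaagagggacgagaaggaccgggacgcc
Motifs were searched on both strands as CCGGAAG for ETS factors, AAGATGGC for YY1 and an NRF1 motif with 1 free base. The capitals are the matched letters on the gene's strand, so a match on the other strand appears as its reverse complement, as in Mrpl30 and Mrps27. These motifs do not overlap one another in the 5 windows shown. Mrpl30, which was lower in Dnmt3a+/- cells, and Mrpl9 and Mrpl39, with positive differences, each hold 1 match to the NRF1 motif. Mrps27 holds 1 match to the ETS motif, and the window of Mrps31 holds none of the 3. The windows of Mrpl49, Mrps30, Mrpl23 and Mrps2, which also lie at the ends of the range, hold none either and are not shown. No promoter was listed for Mrpl54, Mrpl38 and Mrps28, so their windows were not searched.

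Promoters were listed for 65 of the 74 members. The NRF1 motif was in 9 of these (13.8%, against 5.30% of the 17492 promoters of protein-coding genes), the ETS motif in 15 (23.1%, against 9.13%) and the YY1 motif in 4 (6.15%, against 1.51%). At least 1 of the 3 was in 26 (40.0%, against 14.8%). The windows of the members had a median GC content of 58.4%, and those of all genes 55.2%. A match is a description of letters and not evidence of binding.

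Members also often shared their promoter region with a neighbour. For 22 of the 65 (33.8%) another protein-coding gene started within 1000 bases on the opposite strand and pointed away, which was the case for 7.52% of all 17492 genes. Mrpl49 lay beside Fau, a gene for a protein of the cytoplasmic ribosome, Mrps12 beside Sars2, the mitochondrial seryl-tRNA synthetase, and Mrpl47 beside Ndufb5, a subunit of respiratory complex I. Mrpl46 and Mrps11 are divergent neighbours of each other, and they are described for this position, chosen after their values were seen. Mrps11 read 8.15, 8.35 and 8.16 on Wild-type and 8.28, 7.49 and 7.98 on Dnmt3a+/- arrays, a difference of -0.30 (SE 0.20), or -0.085 without Dnmt3a+/- replicate 2. Mrpl46 read 7.44, 8.41 and 8.04 against 7.93, 7.84 and 8.27, a difference of 0.05 (SE 0.24). The pair thus had different patterns over the arrays.

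Large-subunit genes had a median difference of -0.08 with 32 of 47 negative, and small-subunit genes one of -0.05 with 17 of 26 negative. The small-subunit median was 0.0036 with array weights and 0.0031 without Wild-type replicate 2, each with 13 of 26 negative, so its sign was not stable. The medians per array, taken as each gene's value minus its Wild-type mean, were -0.08, 0.04 and 0.03 on Wild-type and 0.00, -0.36 and 0.13 on Dnmt3a+/- arrays for the large subunit. For the small subunit they were -0.08, 0.08 and -0.02 on Wild-type and 0.04, -0.19 and 0.04 on Dnmt3a+/- arrays. In both subunits Dnmt3a+/- replicate 2 was the lowest array, and the other Dnmt3a+/- arrays lay at or above the Wild-type mean. Without replicate 2 the medians were 0.06 for the large and 0.03 for the small subunit.

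Over all 74 members the median per array averaged -0.07 ± 0.19 over the Dnmt3a+/- arrays and -0.01 ± 0.07 over the Wild-type arrays (SD, n = 3). On Dnmt3a+/- replicate 2 it was -0.28, and on replicates 1 and 3 it was 0.01 and 0.08. That array was the lowest of the 6 for 45 members (60.8%), beside 32.5% of all genes, and 61 members were below their Wild-type mean on it. Without it the members' median difference was 0.04 with 26 of 74 negative, beside -0.01 and 51.5% for all genes, so the direction turned. In that comparison 0 members passed in limma, 3 had an unadjusted p under 0.05 (4.05%, beside 5.47% of all genes), and the genotypes did not overlap for 4 members that were lower (5.41%, beside 12.5% of all genes) and 7 that were higher (9.46%, beside 10.01% of all genes).

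**Figure D3:**
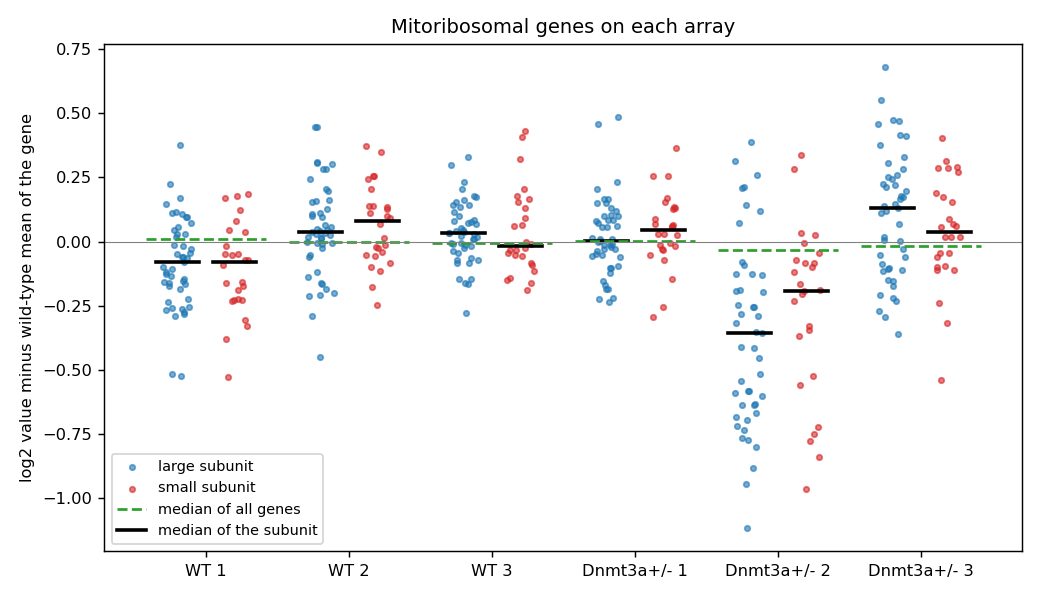
Log2 value of each member other than Mrps36 minus its Wild-type mean (vertical axis) on each of the 6 arrays, with points for genes coloured by subunit, black lines for the median of the subunit and a dashed line for the median of all genes. Dnmt3a+/- replicate 2 has medians of -0.36 for the large and -0.19 for the small subunit, while the median of all genes on it is -0.03.

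Values on this array also depended on how bright a gene was. Over all genes, the brightest 20% had a median of -0.27 on Dnmt3a+/- replicate 2, and the 35 members among them one of -0.26. In the next 20% all genes had a median of -0.19 and the 30 members one of -0.30. In the middle 20% all genes were at 0.00 and the 7 members at -0.67. After cyclic loess, which is meant to even out such dependence on level, the members' median on this array was -0.23, and that of all genes -0.02. The groups by brightness were not computed after cyclic loess, so these 2 medians are not matched for level. Markers of dividing cells (Mki67, Top2a, Cdk1 and 4 others) had medians of -0.35, 0.12 and 0.26 on Wild-type and -0.07, -0.39 and 0.15 on Dnmt3a+/- arrays, so they too were lowest on Dnmt3a+/- replicate 2, followed by Wild-type replicate 1, where the members stood at -0.08. Their mean level was 8.25 to 8.80 in Wild-type and 8.18 to 8.73 in Dnmt3a+/- cells, and 0 of 7 passed. Their part in the result was not tested.

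Markers of mature lineages, which the sort should remove, were also read. The mean level of the 9 neutrophil markers was 9.08 to 9.76 in Wild-type and 9.53 to 10.27 in Dnmt3a+/- cells, and that of the 6 erythroid markers 7.32 to 7.69 and 7.43 to 7.60. Neutrophil array medians were 0.36, -0.57 and 0.20 on Wild-type and 0.75, 0.30 and 0.19 on Dnmt3a+/- arrays. Their median difference was 0.30 with 2 of 9 negative (beside 54.4% of all genes), and 0.45 without Dnmt3a+/- replicate 2. On Dnmt3a+/- replicate 2 the erythroid median was -0.11. The 6 monocyte markers stood at 0.11 on that array, the 6 B cell markers at 0.10 and the 7 T and NK cell markers at 0.20. Of the 8 stem and progenitor symbols 6 were negative (75%, beside 54.4% of all genes, not matched for brightness). Flt3 and Cd34 were the most negative, at -0.32 and -0.23. Evi1 and Mds1 are both symbols of Mecom, with differences of -0.11 and 0.19, so the 8 symbols are not separate genes. The list's median difference was -0.12, both with all arrays and without Dnmt3a+/- replicate 2. Its median level was 9.19, and all genes in the brightest 20% (from 8.21 upward) had a median difference of -0.13. In limma over all genes 0 markers of these lists passed. At an unadjusted p under 0.05, 2 neutrophil, 2 monocyte, 1 B cell and 2 T and NK cell markers were higher, and 1 monocyte and 1 T and NK cell marker were lower. Of all genes, 2.94% were higher and 4.59% lower at that p. Their part in the result was not tested.

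**Figure D4:**
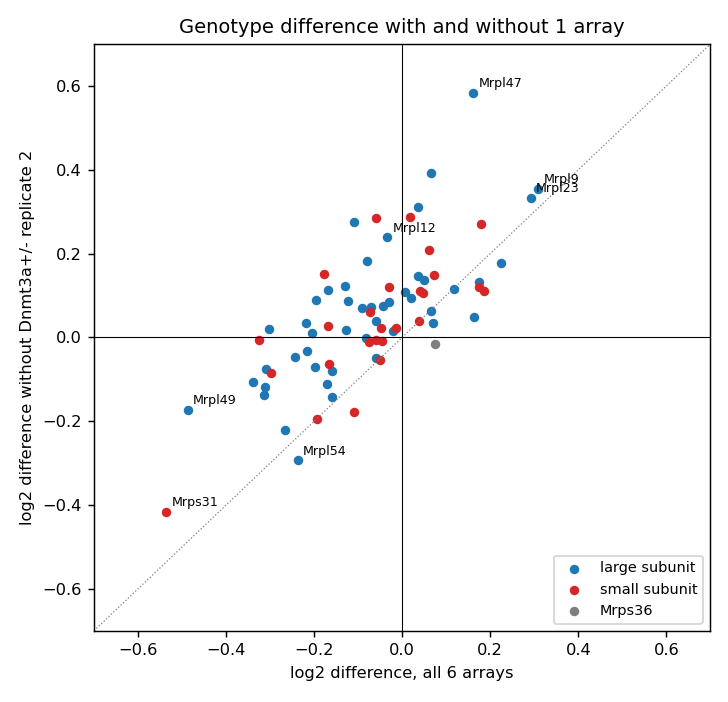
Log2 difference of each member with all 6 arrays (horizontal axis) and without Dnmt3a+/- replicate 2 (vertical axis), with colour for the subunit and a dotted line of equality. Most points lie above the line, and 48 of the 74 members are positive without that array, while Mrps31 and Mrpl54 lie at -0.42 and -0.29.

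Parts of the large subunit differed in their array medians. The central protuberance had 7 of 8 members negative, with a median of -0.16, and its array medians were -0.05, 0.02 and 0.04 on Wild-type and -0.01, -0.59 and -0.03 on Dnmt3a+/- arrays. Without Dnmt3a+/- replicate 2 its median difference was 0.03. The rim of the exit tunnel (Mrpl17, Mrpl22, Mrpl23, Mrpl24, Mrpl45 and Mrpl47) had 5 of 6 members positive, with a median of 0.14, and array medians of -0.22, 0.17 and 0.08 on Wild-type and -0.01, 0.13 and 0.27 on Dnmt3a+/- arrays. It was at 0.13 on replicate 2, and its median difference without that array was 0.08. Wild-type replicate 1 was the lowest array for 3 of the 6 exit tunnel members, and 5 were below their Wild-type mean on it. The group's difference without Wild-type replicate 1 was not computed. The median level was 8.22 for the central protuberance and 7.36 for the exit tunnel, and values on Dnmt3a+/- replicate 2 depended on level. In either group 0 members passed in limma or had an unadjusted p under 0.05, and the difference between the groups was not tested.

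Around the stalk, which recruits translation factors, Mrpl12 read 9.42, 9.04 and 9.29 on Wild-type and 9.40, 8.67 and 9.58 on Dnmt3a+/- arrays. Mrpl12 encodes the flexible part of the stalk, and its difference was -0.03 (SE 0.24), or 0.01 after cyclic loess. Mrpl11, at the base, read 8.79, 8.74 and 8.55 against 8.84, 8.18 and 9.17, a difference of 0.04 (SE 0.24). Mrpl10, which holds the Mrpl12 copies, read 8.75, 8.39 and 8.45 against 8.66, 8.25 and 8.55, a difference of -0.04 (SE 0.15). All 3 were lowest on Dnmt3a+/- replicate 2, and without it Mrpl10, Mrpl11 and Mrpl12 had differences of 0.07, 0.31 and 0.24. Mrpl54 was the exception among the stalk genes.

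Mammals have 3 versions of the Mrps18 protein, and a ribosome carries them at different places. Mrps18a, of the large subunit, read 8.64, 8.64 and 9.13 on Wild-type and 8.57, 8.04 and 9.22 on Dnmt3a+/- arrays, a difference of -0.20 (SE 0.29). Mrps18b read 8.28, 8.73 and 8.75 against 8.55, 8.26 and 8.86, a difference of -0.03 (SE 0.19), or 0.01 after cyclic loess. Mrps18c, the counterpart of the bacterial protein, read 8.45, 9.19 and 9.30 against 9.15, 8.45 and 9.38, a difference of 0.02 (SE 0.29). The spread within each genotype exceeded all 3 differences. Mrps36 read 8.23, 8.53 and 8.81 on Wild-type and 8.15, 8.78 and 8.87 on Dnmt3a+/- arrays, a difference of 0.07 (SE 0.22), and was not low on replicate 2.

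Members with a bacterial counterpart had a median difference of -0.06 (27 of 46 negative), and those found only in mitochondria one of -0.11 (22 of 27 negative). On Dnmt3a+/- replicate 2 the medians were close, at -0.30 and -0.29. Without that array they were 0.07 and 0.02. The members not named singly had differences from -0.31 (Mrpl4) to 0.17 (Mrpl14), each with overlapping genotypes and a limma adjusted p of at least 0.663.

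Genes of the same machinery under other names were described in the same way. Of 6 further mitoribosomal proteins (Dap3, Ptcd3, Chchd1, Gadd45gip1, Mrp63 and Ict1) 5 had a negative difference, with a median of -0.05. Ptcd3, an RNA-binding protein of the small subunit, was at 7.80 ± 0.24 in Wild-type cells against 7.50 ± 0.22 in Dnmt3a+/- cells (SD, n = 3), and Chchd1 at 8.52 ± 0.09 and 8.31 ± 0.27. Without Dnmt3a+/- replicate 2 their differences were -0.23 and -0.060, against -0.30 and -0.21 with it. On Dnmt3a+/- replicate 2 their median was -0.47, and without it the median difference was 0.08. None of the 6 passed in limma, and 0 had an unadjusted p under 0.05.

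Factors that drive mitochondrial translation had 11 of 12 negative differences, with a median of -0.13. In limma 0 passed over all genes, and 3 were lower with an unadjusted p under 0.05. For this list and those below, the shares of all genes are 54.4% negative, and 4.59% lower and 2.94% higher at such a p. The genotypes did not overlap for 9.03% of all genes (lower) and 6.72% (higher). The 2 genes named from each list are those with its smallest unadjusted p. Taco1, listed as Ccdc44 and needed to translate a subunit of cytochrome oxidase, was at 7.61 ± 0.12 in Wild-type and 7.12 ± 0.30 in Dnmt3a+/- cells (difference -0.49, SE 0.17), with no overlap. Mtif2, the initiation factor that brings the first tRNA, was at 7.78 ± 0.11 and 7.50 ± 0.02 (difference -0.27, SE 0.11), also with no overlap (SD, n = 3 for each). Without Dnmt3a+/- replicate 2 the median was -0.04 and 8 of 12 were negative, with Taco1 at -0.43 and Mtif2 at -0.27.

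Assembly factors of the mitoribosome had 17 of 23 negative differences and a median of -0.14. Of these, 0 passed in limma, while 2 were lower and 1 was higher with an unadjusted p under 0.05. Mtg1, a GTPase of large-subunit assembly, was at 7.49 ± 0.13 in Wild-type and 7.11 ± 0.09 in Dnmt3a+/- cells (difference -0.38, SE 0.12). Rpusd4, a pseudouridine synthase that modifies the large ribosomal RNA, lay on the other side at 7.05 ± 0.13 and 7.53 ± 0.17 (difference 0.48, SE 0.13), and in both genes the genotypes did not overlap (SD, n = 3 for each). Without replicate 2 the median of the list was -0.03, with 12 of 23 negative, Mtg1 at -0.35 and Rpusd4 at 0.39.

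Mitochondrial tRNA synthetases and the related amidotransferase had 12 of 19 negative differences and a median of -0.11, or 0.02 without Dnmt3a+/- replicate 2. Yars2, which charges the tyrosine tRNA, differed by -0.47 (SE 0.18) and Gatc, a subunit of the amidotransferase, by -0.48 (SE 0.26), with overlapping genotypes. Without that array they were at -0.43 and -0.24. Genes that copy or transcribe the mitochondrial genome or handle its RNA had 10 of 13 negative and a median of -0.08. In that list the transcription factor Tfb2m was at -0.51 (SE 0.25) and the polymerase Polrmt at -0.09 (SE 0.12). Regulators known to act on such genes had 7 of 10 negative and a median of -0.15. Among them Gabpb1, a subunit of GABP, was at -0.35 (SE 0.13) and the coactivator Ppargc1a at -0.50 (SE 0.24). Without replicate 2 those medians were -0.04 and -0.03, while Tfb2m was at -0.19, Polrmt at -0.042, Gabpb1 at -0.34 and Ppargc1a at -0.49. In these 3 lists 0 genes passed in limma, and 1, 0 and 1 had an unadjusted p under 0.05, each lower.

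Among genes that the platform lists under symbols of the mitochondrial genome, a list drawn up after those symbols were seen, 10 of 11 had a negative difference, with a median of -0.05. ND1 was at 12.87 ± 0.01 in Wild-type cells against 12.80 ± 0.06 in Dnmt3a+/- cells (SD, n = 3), and ND6 at 12.22 ± 0.04 and 12.31 ± 0.08. On Dnmt3a+/- replicate 2 their median was -0.06, where nuclear genes of the respiratory chain stood at -0.32 and those of the cytoplasmic ribosome at -0.18. The 80 nuclear respiratory chain genes had array medians of -0.07, 0.01 and 0.09 on Wild-type and -0.03, -0.32 and 0.10 on Dnmt3a+/- arrays. Their median difference without replicate 2 was 0.03. The 62 cytoplasmic ribosomal protein genes had -0.03, 0.02 and 0.00 on Wild-type and -0.10, -0.18 and -0.02 on Dnmt3a+/- arrays, and -0.06 without replicate 2. The differences between these groups were not tested.

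**Figure D5:**
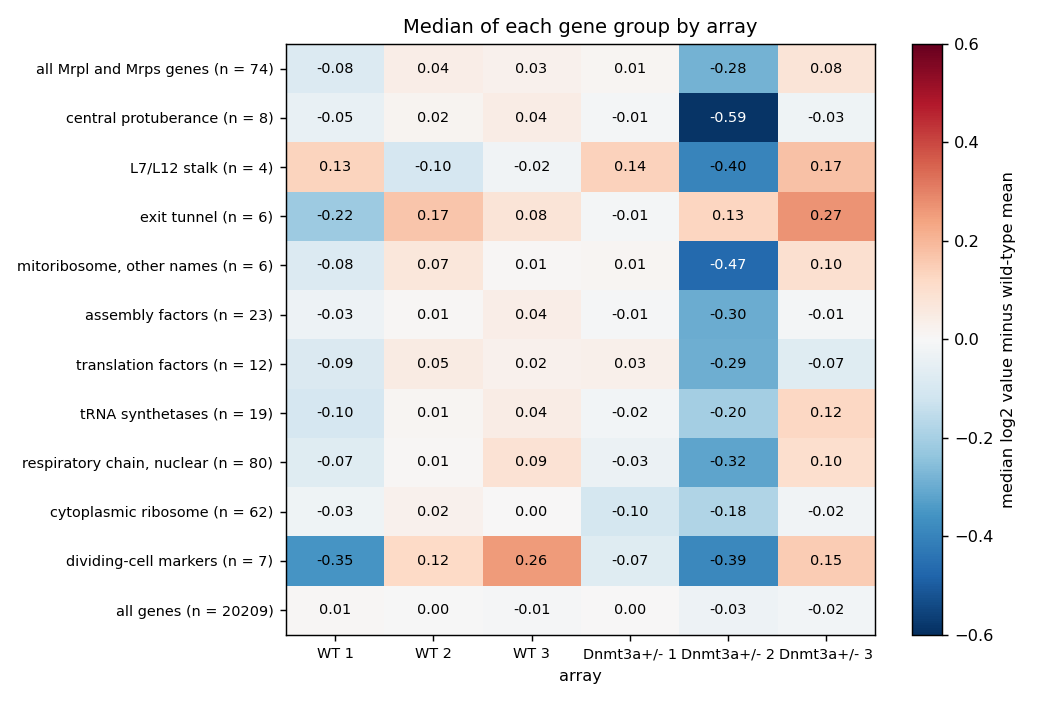
Median log2 value minus the Wild-type mean, by gene group (rows, with the number of genes) and array (columns), printed in each cell and coloured from blue (negative) to red (positive). Dnmt3a+/- replicate 2 is at -0.28 for the mitoribosomal genes and at -0.59 for the central protuberance, while the exit tunnel group is at 0.13.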

How the data were processed

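Total RNA (20 ng) of sorted KLS cells was amplified as whole-transcript cDNA and labelled with biotin, 1 sample per array, per the labels' protocols. The authors deposited normalized intensity values, made with RMA in Partek per the submitters' processing notes; the sources used here give no version or setting. The values ran from 1.84 to 22239 with array medians of 59.8 to 61.6, so they were linear, and their log2 was used without a pseudocount. RMA equalizes the arrays' distributions and would hide a shift of most genes. Levels served to filter probe sets, to group genes by brightness and to summarize gene lists. No test compared the levels of different genes.

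Names came from the platform's annotation, which can be old: 318760 of 1256831 had 1 symbol, 6684 had several and 931387 had none listed. A gene's value was the mean of its named probe sets with a mean above the median of all (log2 5.89). Older symbols of listed genes were matched through RefSeq (GRCm38.p6). The comparison used limma 3.58.1 under R 4.3.3 (lmFit, eBayes, no covariate, Benjamini-Hochberg over 20209 genes). The fit was also run on simulated data. These had independent values of equal spread on all arrays, so they do not cover an array that stands apart. Differences are Dnmt3a+/- minus Wild-type. Single genes were also compared with an exact permutation test. The number of arrays limits the precision.

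The members, gene lists, motifs and tests were chosen with earlier results of these data known. Named genes were Dnmt3a, members with an unadjusted p under 0.05, up to 10 non-overlapping ones, the 5 largest differences in each direction, the Mrps18 versions, Mrps30, Mrps36, the stalk genes, and 2 genes per other mitochondrial list. Alternatives covered normalization, filter, averaging, variance model, array weights, pseudocount, gene names, a replicate block and leaving out each array.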

Additional observations from a re-analysis of the deposited data

How the results depend on the processing

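No member and no gene passed an adjusted p of 0.05 in limma under any of the 16 alternatives run. The median difference of the members was negative under each alternative that kept all arrays, from -0.08 to -0.03, and with single arrays left out it ranged from -0.14 to 0.045; it reversed to 0.045 without Dnmt3a+/- replicate 2. With single arrays left out, members with a negative difference numbered 26 to 61, and members with an unadjusted p under 0.05 numbered 1 to 6. There were 6 without Dnmt3a+/- replicate 1, 5 without Wild-type replicate 2 and 3 without Dnmt3a+/- replicate 2 (8.11%, 6.76% and 4.05%, beside 8.26%, 4.61% and 5.47% of all genes). Members with non-overlapping genotypes then numbered 6 to 17, since fewer arrays overlap less often. The 6 were without Wild-type replicate 3 (8.11%, beside 23.8% of all genes) and the 17 without Dnmt3a+/- replicate 1 (23.0%, beside 26.2%). The 1 member with an unadjusted p under 0.05 became 0 with no filter on dim probe sets, 2 with the filter at the 75th percentile, 5 with the median of probe sets and 3 with array weights (7.34%, 7.32%, 6.83% and 12.8% of all genes). With the median of probe sets the 5 non-overlapping members became 8 (10.8%, beside 13.9% of all genes). The cause was not tested. Genes near 0 changed sign: Mrpl10 was 0.037 with the median of probe sets and 0.11 with array weights; Mrpl12 was 0.011 after cyclic loess, 0.11 with the median of probe sets and 0.13 with array weights; Mrps18b was 0.0068 after cyclic loess; Mrps18c was -0.045 with no filter and -0.018 with the median of probe sets; Mrps36 was -0.27 with array weights. With 1 array left out, the ranges were -0.13 to 0.074 for Mrpl10, -0.18 to 0.31 for Mrpl11, -0.22 to 0.24 for Mrpl12, -0.50 to 0.089 for Mrps18a, -0.18 to 0.12 for Mrps18b, -0.25 to 0.29 for Mrps18c and -0.072 to 0.30 for Mrps36. With the replicate number as a replicate block, the median stayed at -0.06 and 0 members passed; same-numbered arrays deviated from their group means with correlations of -0.04, -0.09 and 0.11, so the numbers were not taken to pair the samples. A pseudocount of 16 and a variance trend gave 1 member with an unadjusted p under 0.05 each.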
